A study of Chlorocebus sabaeus with 6 samples.

Results

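The genes described here encode lysosomal hydrolases, lysosomal membrane proteins, the transcription factors that control them, and the vacuolar-type proton pump (V-ATPase) with its accessory proteins. They were chosen by symbol, as 38 named genes together with every symbol that starts with ATP6V0, ATP6V1 or ATP6AP, of which there were 26. All 38 names were found, which gave 64 of the 18050 genes in the deposited table. RNA was measured in COS7, a fibroblast-like kidney line of the green monkey Chlorocebus sabaeus that carries SV40 T antigen, in 3 wild-type samples (WT) and 3 samples in which both ATL2 and ATL3 had been knocked out (DKO). Both encode atlastins, GTPases whose membrane fusion builds the tubular network of the endoplasmic reticulum. All cells were grown in DMEM with fetal bovine serum, and no other treatment is given. The labels state neither how the knockout was made, nor how many clones it represents, nor whether the samples of a group were separate cultures, so the p-values rest on the spread among these 6 samples alone, and that spread may be technical.

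Lysosomes are acidic organelles in which proteins, glycans, glycosaminoglycans and lipids are taken apart by soluble hydrolases. Most of these enzymes are made in the endoplasmic reticulum, tagged with mannose 6-phosphate in the Golgi and carried on by sorting receptors. The V-ATPase keeps the lumen acidic: its cytosolic V1 sector hydrolyses ATP and turns a ring in the membrane-bound V0 sector, which moves protons. TFEB, TFE3 and MITF are related helix-loop-helix factors that activate many lysosomal genes and are held in the cytosol by mTORC1 when nutrients are plentiful.

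The libraries held 14197344 to 15693049 estimated counts. ATL2 was at 29.2 to 32.2 FPKM (counts scaled to transcript length and library depth) in WT and 3.78 to 7.38 in DKO, and ATL3 at 34.7 to 37.3 and 3.50 to 5.93 (log2 fold changes -2.21 and -2.83, edgeR adjusted p = 0.00029 and 3.7e-05). DKO replicate 3 stood apart from the other DKO samples: at equal totals it differed from them by a chi-square of 78.7 and 83.8 per gene, against 1.55 between DKO replicates 1 and 2 and 1.86 to 3.64 between WT samples. Results are therefore given with and without it. Of the fibroblast markers, VIM was high in both groups (means of 1530 and 1320 FPKM), whereas COL1A2, COL3A1, DCN and THY1 were at or near 0; the 8 in the table summed to 3330 to 3420 FPKM in WT and 1500 to 1550 in DKO. FN1 fell from a mean of 1840 to 207 FPKM and COL1A1 from 7.40 to 1.06, while PDGFRB rose from 0.587 to 5.35 (log2 fold changes -3.10, -2.75 and 3.23, edgeR adjusted p = 6.5e-06, 6.1e-05 and 2.3e-05). The 5 epithelial markers summed to 661 to 754 FPKM in WT and 528 to 689 in DKO, mostly KRT8, which was not called. CDH1 (-5.69) and KRT18 (-0.78) fell, and EPCAM (1.34) and KRT19 (2.31) rose (edgeR adjusted p = 4.4e-06, 0.0052, 0.0016 and 0.0070). CDH1 passed the filter on low counts only through WT (345, 354 and 349 counts, against 7, 5 and 7 in DKO). KRT19 passed it only through DKO (22, 18 and 47 counts, against 6, 8 and 4 in WT). Summed levels of 7 macrophage markers were 0.93 to 0.99 FPKM in WT and 0.57 to 0.79 in DKO, with TYROBP at 0, and those of 4 markers of renal intercalated cells were at most 0.17 FPKM in any sample, with SLC4A1 at 0. Of the 3 melanocyte markers in the table, MLANA and DCT stayed below 0.14 FPKM in group means, while PMEL, which encodes the fibril protein of melanosomes, rose from 7.42 to 8.20 FPKM in WT to 57.9 to 80.6 in DKO (log2 fold change 3.11, edgeR adjusted p = 3.7e-05). The part of these marker differences in the results was not tested. Of the 2 osteoclast markers in the table, OCSTAMP had a mean of 0 FPKM in WT and 0.02 in DKO, and NFATC1, a factor also found in other cells, rose from 3.81 to 4.85 FPKM (0.40, edgeR adjusted p = 0.039).

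Changes in lysosome and V-ATPase genes went both ways. Of the 57 genes with enough counts to be tested, 17 were higher in DKO, 12 were lower and 28 were not called at an edgeR adjusted p below 0.05. Over all 13094 genes tested, 23.3% were called higher and 22.2% lower, 45.5% together, so the 29 of 57 called here are close to the background. The median log2 fold change (DKO over WT) was 0.03, against -0.01 for all genes tested. For 41 of the 57, the 3 DKO samples lay all above (22) or all below (19) the WT samples, as they did for 63.2% of all genes tested. Without DKO replicate 3, 22 of the 57 were called higher and 23 lower, beside 36.0% and 38.6% (74.6% together) of all genes in that fit. All 17 and 12 genes called with every sample were called in the same direction there. Differences of the 28 uncalled genes ran from -0.44 (ATP6V1A) to 0.33 (ARSA).

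**Figure D1:**
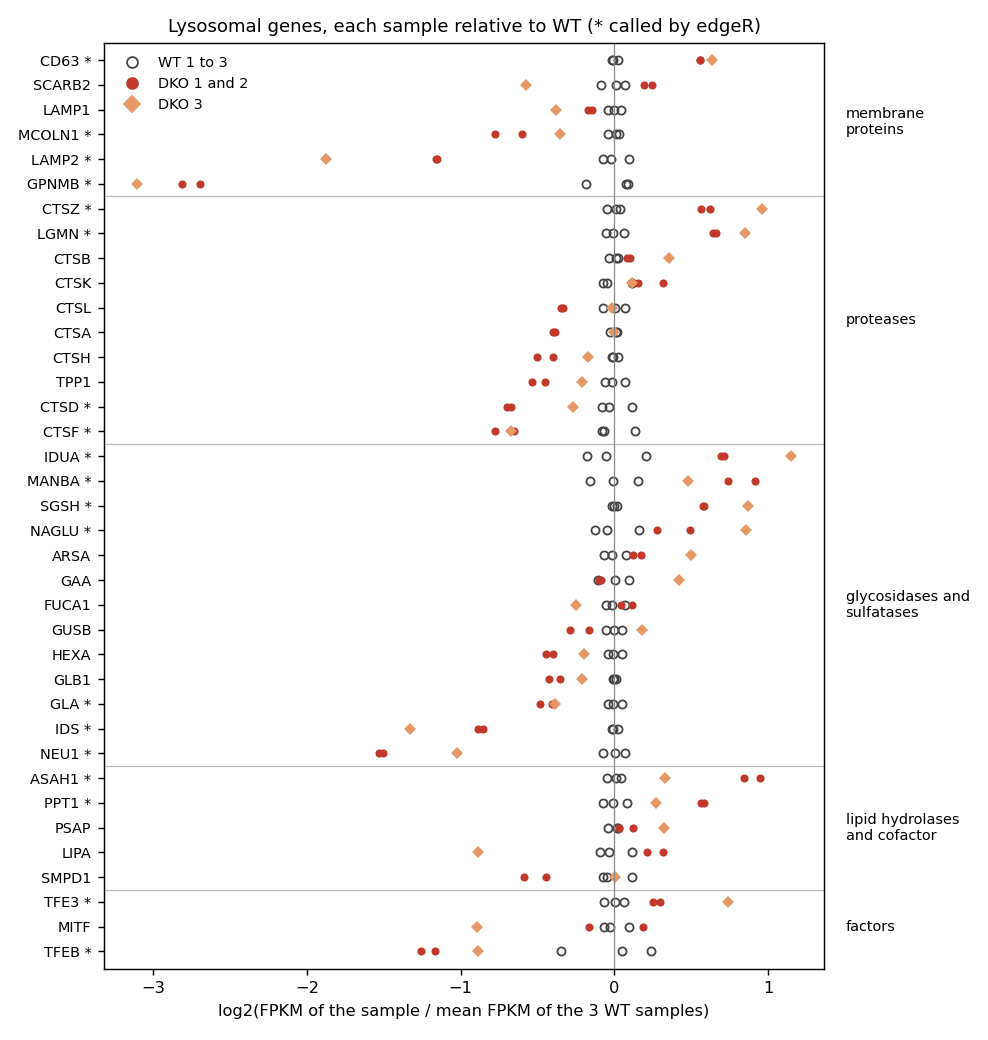
FPKM of 37 lysosomal genes in each sample, as log2 of the ratio to the mean of the 3 WT samples, grouped by role; open circles are WT, red circles DKO replicates 1 and 2, and diamonds DKO replicate 3, and an asterisk marks a call by edgeR. GPNMB, LAMP2, NEU1 and IDS lie far to the left in all 3 DKO samples, and for SCARB2 and LIPA the diamond lies on the other side of WT from the red circles.

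Among the 6 membrane proteins, GPNMB, LAMP2 and MCOLN1 fell and CD63 rose (66.7% called, beside 45.5% of all genes tested). GPNMB, a heavily glycosylated protein of melanosomes and lysosomes, had 29.3, 35.1 and 35.5 FPKM in WT and 5.15, 4.75 and 3.87 in DKO. The groups were far apart, with DKO at 13.8% of the WT mean (log2 fold change -2.82, SE 0.14, edgeR adjusted p = 1.6e-05), a direction opposite to that of the melanosomal PMEL. LAMP2, one of the abundant glycoproteins that line the inner face of the lysosomal membrane, was at 44.0, 42.4 and 47.7 FPKM in WT and 20.1, 20.1 and 12.2 in DKO. All DKO samples were below all WT samples, and DKO replicate 3 was the lowest (-1.32, SE 0.19, edgeR adjusted p = 0.0015; -1.13 without it). Its close relative LAMP1 was much less affected, at 180, 186 and 191 FPKM in WT and 165, 168 and 143 in DKO. These groups did not overlap, but the difference was not called (-0.19, SE 0.08, edgeR adjusted p = 0.11), and it was called without DKO replicate 3 (-0.15, adjusted p = 0.0011). The ratio of LAMP1 to LAMP2 was 4.10, 4.38 and 4.00 in WT and 8.22, 8.39 and 11.7 in DKO.

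The tetraspanin gene CD63, the most abundant of the 64 genes in FPKM, had 513, 499 and 502 in WT. It reached 743, 741 and 783 in DKO, with little spread within either group (0.64, SE 0.10, edgeR adjusted p = 0.0018). MCOLN1, which encodes the lysosomal calcium channel TRPML1, was at 17.2, 17.0 and 16.3 FPKM in WT and 11.1, 9.85 and 13.2 in DKO. All DKO samples were lower (-0.51, SE 0.16, edgeR adjusted p = 0.035), but the call was lost without any 1 of the WT samples or without DKO replicate 1 or 2 (edgeR adjusted p = 0.085 to 0.11). SCARB2, the receptor that carries glucocerebrosidase to lysosomes, had 29.7, 26.7 and 28.5 FPKM in WT and 33.5, 32.3 and 19.0 in DKO. DKO replicates 1 and 2 were above every WT sample and DKO replicate 3 was below them all (0.03, edgeR adjusted p = 0.91; 0.22 without DKO replicate 3, adjusted p = 1.0e-04).

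Of the MiT/TFE factors, TFEB was lower and TFE3 higher in DKO. TFEB had 2.28, 2.60 and 1.73 FPKM in WT and 0.92, 0.98 and 1.19 in DKO. The groups did not overlap, although the level was low throughout, with 58 to 86 counts per WT library and 29 to 41 per DKO library (-1.07, SE 0.22, edgeR adjusted p = 0.0064). TFE3 was at 30.8, 32.1 and 29.3 FPKM in WT and at 36.5, 37.7 and 51.3 in DKO. All DKO samples were higher, DKO replicate 3 most of all (0.49, SE 0.17, edgeR adjusted p = 0.048). Without DKO replicate 3 the difference was smaller, at 0.28, and was called (edgeR adjusted p = 7.4e-06). Without any 1 of the WT samples the gene was not called (edgeR adjusted p = 0.10 to 0.16). Nor was TFE3 called with upper quartile normalization (edgeR adjusted p = 0.059), limma-voom (0.057) or limma on log2 FPKM (0.051 and 0.052). On the FPKM scale TFE3 exceeded TFEB by 12.4 to 16.9 times in WT and 38.4 to 43.1 times in DKO. MITF, the melanocyte and osteoclast member of the family, had 1.11, 1.08 and 1.21 FPKM in WT and 1.01, 1.29 and 0.61 in DKO. Its groups overlapped (-0.20, SE 0.24, edgeR adjusted p = 0.53).

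**Figure D2:**
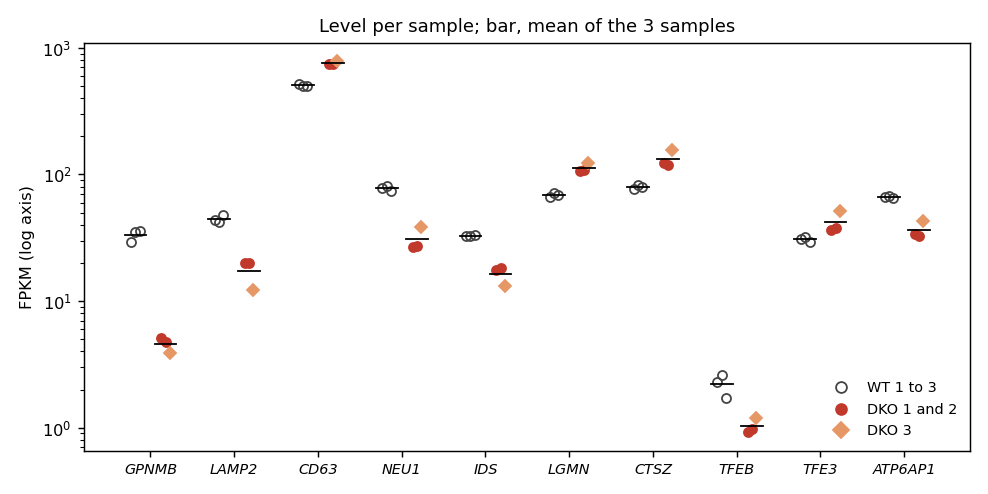
FPKM on a log axis for 10 called genes in each sample (open circles, WT; red circles, DKO replicates 1 and 2; diamonds, DKO replicate 3), with a bar at the mean of each group of 3. In every gene the 2 groups are apart, from GPNMB at 3.87 to 5.15 in DKO against 29.3 to 35.5 in WT, to TFE3 at 36.5 to 51.3 against 29.3 to 32.1.

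Of 10 tested protease genes, CTSZ and LGMN rose, CTSD and CTSF fell, and 6 were not called. Thus 40.0% were called, beside 45.5% of all genes tested. CTSZ, a carboxypeptidase of the papain family, had 77.1, 81.9 and 80.1 FPKM in WT and 123, 118 and 155 in DKO. LGMN, the asparaginyl endopeptidase legumain that processes other cathepsins, had 66.0, 71.5 and 68.2 in WT and 107, 108 and 123 in DKO. Both were higher in every DKO sample than in any WT sample, by log2 fold changes of 0.78 (SE 0.16, edgeR adjusted p = 0.0059) and 0.77 (SE 0.12, adjusted p = 0.0018). CTSF, a further cysteine cathepsin, was at 19.0, 21.8 and 18.8 FPKM in WT and 11.6, 12.7 and 12.5 in DKO (-0.65, SE 0.13, edgeR adjusted p = 0.0051). CTSD, the main aspartic protease of lysosomes, was at 322, 368 and 331 in WT and 209, 214 and 282 in DKO. DKO replicate 3 was the closest to WT (-0.48, SE 0.16, edgeR adjusted p = 0.045), and the call was lost without any 1 WT sample or without DKO replicate 1 or 2 (adjusted p = 0.088 to 0.13).

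The uncalled proteases included some of the most abundant. CTSL, a broad cysteine endopeptidase, had 256 to 283 FPKM in WT, 213 and 214 in DKO replicates 1 and 2 and 267 in DKO replicate 3. CTSA, the carboxypeptidase that shields neuraminidase and beta-galactosidase, had 203 to 209 in WT, 157 and 158 in DKO replicates 1 and 2 and 206 in DKO replicate 3. Both thus lay below WT in 2 DKO samples and within the WT range in DKO replicate 3. The same 2 samples put CTSH, an aminopeptidase, and TPP1, a tripeptidyl peptidase, further below WT than DKO replicate 3 did, with CTSH means of 24.7 ± 0.399 against 19.3 ± 2.30 FPKM and TPP1 means of 68.4 ± 3.14 against 52.2 ± 6.24 (WT against DKO, ± SD, 3 samples each). Without DKO replicate 3, 6 of the 10 proteases were called lower: CTSL (-0.34), CTSA (-0.39), CTSH (-0.45) and TPP1 (-0.49) beside CTSD (-0.68) and CTSF (-0.71). In that fit 2 of the 10 were called higher. Of all genes in it, 38.6% were called lower and 74.6% either way. With limma on log2(FPKM + 1) and all samples, CTSH (edgeR adjusted p = 0.15, limma adjusted p = 0.037) and TPP1 (edgeR 0.075, limma 0.023) were also called lower. CTSB had 121 to 126 FPKM in WT and 131 to 159 in DKO (0.24, edgeR adjusted p = 0.17). CTSK, known from osteoclasts, stayed at 1.57 to 2.06 FPKM in all 6 samples, and CTSS, known from antigen-presenting cells, had 7 counts in WT and 12 in DKO, too few to be tested.

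Among 13 glycosidases and sulfatases, 4 rose, 3 fell and 6 were not called (53.8% called, beside 45.5% of all genes tested). NEU1, the lysosomal sialidase, had 78.1, 81.5 and 73.7 FPKM in WT and 27.0, 27.4 and 38.3 in DKO. The DKO mean was 39.7% of that of WT (-1.29, SE 0.19, edgeR adjusted p = 0.0014). NEU1 works in a complex with CTSA and with GLB1, the lysosomal beta-galactosidase. GLB1 was at 45.0, 45.1 and 45.5 FPKM in WT and 33.7, 35.3 and 39.0 in DKO, below WT in every sample but not called (-0.28, SE 0.11, edgeR adjusted p = 0.084; limma on log2(FPKM + 1), adjusted p = 0.022). Without DKO replicate 3, all 3 genes of this complex were called lower, with NEU1 at -1.53, GLB1 at -0.39 and CTSA at -0.39. In that fit 38.6% of all genes were called lower and 74.6% either way. With all samples only NEU1 was called (CTSA, edgeR adjusted p = 0.33).

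Enzymes of glycosaminoglycan breakdown moved in opposite directions. IDS, the sulfatase that opens the degradation of dermatan and heparan sulfate, had 32.4, 32.6 and 33.2 FPKM in WT and 17.7, 18.1 and 13.1 in DKO. It fell in every DKO sample (-0.99, SE 0.12, edgeR adjusted p = 0.00076). IDUA, the iduronidase that acts after IDS, had 6.41, 8.37 and 6.97 FPKM in WT and 11.9, 11.7 and 16.1 in DKO (0.92, SE 0.20, edgeR adjusted p = 0.0087). SGSH, a heparan N-sulfatase, had 11.8, 12.02 and 11.9 in WT and 17.7, 17.8 and 21.7 in DKO (0.73, SE 0.14, edgeR adjusted p = 0.0052). NAGLU, which removes N-acetylglucosamine from heparan sulfate, had 5.54, 6.77 and 5.84 in WT and 7.32, 8.52 and 10.95 in DKO. IDUA, SGSH and NAGLU were thus each higher in all 3 DKO samples, but the call of NAGLU (0.61, SE 0.20, edgeR adjusted p = 0.042) was lost without any 1 WT sample or without DKO replicate 2 (adjusted p = 0.063 to 0.14). GUSB, the beta-glucuronidase of the same pathway, had 31.4 to 33.7 FPKM in WT, 26.6 and 29.0 in DKO replicates 1 and 2 and 36.8 in DKO replicate 3 (-0.03, edgeR adjusted p = 0.90). Reads of overlapping genes cannot be told apart without strand, and in RefSeq 14 of the 63 matched genes overlap another gene. IDUA overlaps SLC26A1, which was at 0.86 to 1.24 FPKM in WT and 1.23 to 2.15 in DKO. SGSH overlaps CARD14 (at most 0.11 FPKM) and CTSA overlaps PLTP (at most 2.98 FPKM). GLB1 overlaps TMPPE (at most 0.28 FPKM) and pseudogenes. MANBA, ATP6V0A2 and ATP6V1B1 overlap pseudogenes, and ATP6V0E2 overlaps a long noncoding RNA. The estimated counts of IDS, GUSB and ATP6V0D1 were not whole numbers in any sample, and those of CTSA and ATP6V1C2 were not whole in some.

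Of the remaining glycosidases and sulfatases, MANBA rose and GLA fell. MANBA, the beta-mannosidase of N-glycan breakdown, had 3.46, 3.84 and 4.30 FPKM in WT and 6.44, 7.29 and 5.39 in DKO (0.76, SE 0.15, edgeR adjusted p = 0.0053). GLA, the alpha-galactosidase, had 44.9, 42.3 and 43.2 in WT and 31.0, 32.8 and 33.3 in DKO. The GLA groups did not overlap and had little spread (-0.37, SE 0.11, edgeR adjusted p = 0.030), yet the call was lost without any 1 WT sample or without DKO replicate 1 or 2 (adjusted p = 0.076 to 0.13). HEXA, the alpha subunit of beta-hexosaminidase, averaged 71.0 ± 2.25 FPKM over the WT samples and 55.9 ± 5.21 over the DKO samples (± SD, 3 samples each; -0.26, edgeR adjusted p = 0.11; limma on log2(FPKM + 1), adjusted p = 0.023). GAA, which breaks down glycogen, ARSA, the sulfatase of sulfatide, and FUCA1, a fucosidase, were not called with or without DKO replicate 3, with log2 fold changes of 0.15, 0.33 and 0.02.

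Of the 5 genes for lipid breakdown, ASAH1 and PPT1 rose and none fell (40.0% called, beside 45.5% of all genes tested). ASAH1, the acid ceramidase, had 14.4, 13.8 and 14.7 FPKM in WT and 25.7, 27.7 and 18.0 in DKO (0.76, SE 0.15, edgeR adjusted p = 0.0060). PPT1, a thioesterase that takes palmitate off proteins, had 61.0, 58.1 and 64.8 in WT and 91.6, 90.6 and 74.0 in DKO (0.52, SE 0.10, edgeR adjusted p = 0.0052). In both genes DKO replicate 3 was the DKO sample nearest to WT. LIPA, the acid lipase for cholesteryl esters and triglycerides, was at 14.3, 13.7 and 15.9 FPKM in WT, at 16.9 and 18.2 in DKO replicates 1 and 2 and at 7.90 in DKO replicate 3. Its mean difference was 0 (SE 0.27, edgeR adjusted p = 1.0), and without DKO replicate 3 it was called higher (0.27, adjusted p = 0.00074). SMPD1, the acid sphingomyelinase, had 7.56 to 8.59 FPKM in WT, 5.84 and 5.29 in DKO replicates 1 and 2 and 7.95 in DKO replicate 3 (-0.27, edgeR adjusted p = 0.31; -0.51 without DKO replicate 3, adjusted p = 1.6e-05). PSAP, the precursor of the saposins that help these enzymes reach their lipids, had 193 to 202 FPKM in WT and 203 to 248 in DKO and was not called (0.21, edgeR adjusted p = 0.18).

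**Figure D3:**
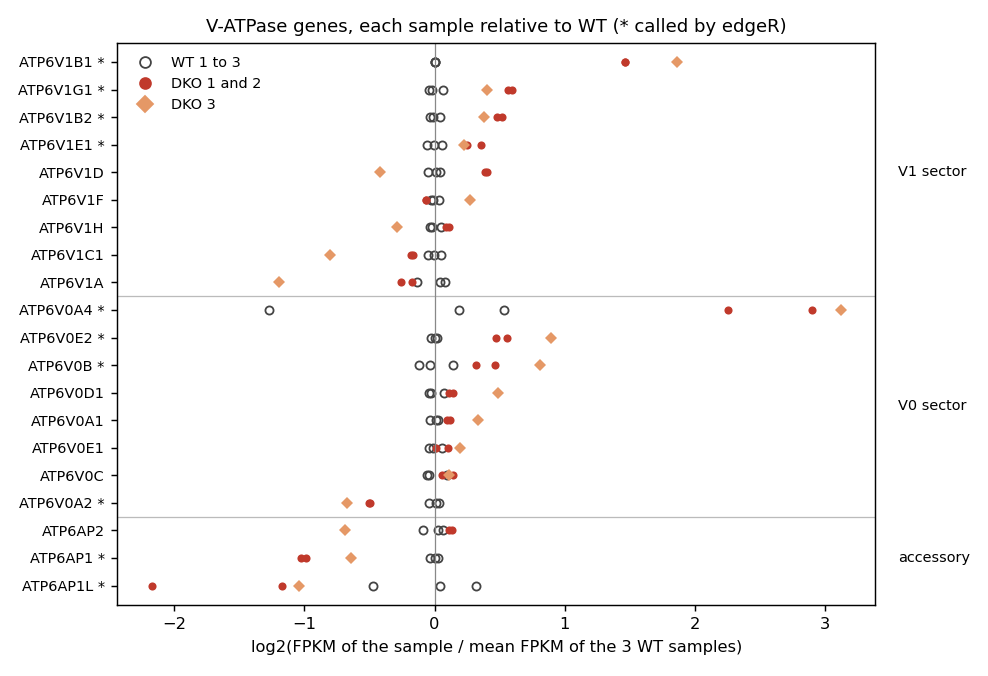
FPKM of 20 V-ATPase genes in each sample, as log2 of the ratio to the mean of the 3 WT samples, by sector; open circles are WT, red circles DKO replicates 1 and 2, and diamonds DKO replicate 3, and an asterisk marks a call by edgeR. ATP6V0A2 and ATP6AP1 lie below WT in all DKO samples, while ATP6V1G1, ATP6V1B2 and ATP6V0E2 lie above it.

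Of 20 tested V-ATPase genes, 7 rose, 3 fell and 10 were not called, close to the 45.5% called over all genes. For 3 of the 10 called genes the filter on low counts was passed only through the group where they were high: ATP6V1B1 and ATP6V0A4 through DKO, and ATP6AP1L through WT. The median log2 fold change was 0.19 for these 20 (0.12 without DKO replicate 3), against -0.01 for all genes tested. Without DKO replicate 3, 10 were called higher and 5 lower, beside 74.6% of all genes called in that fit, and without any other single sample 5 or 6 higher and 2 or 3 lower. In those other fits, 2105 to 2822 of all genes were called higher and 2146 to 2714 lower, of 13255 to 13300 tested. The 22 genes named for V1 or V0 subunits summed to 1433, 1464 and 1431 FPKM in WT and 1625, 1601 and 1714 in DKO. The DKO sums were all above those of WT in both sectors, at 800.0 to 893 against 715 to 756 for V0 and 802 to 821 against 701 to 716 for V1. Abundant genes weigh most in these sums, such as ATP6V1G1 with means of 132 FPKM in WT and 190 in DKO. Gene by gene, 4 of 9 tested V1 genes lay above WT in every DKO sample and 2 below it. For V0, 5 of 8 lay above and 1 below. The groups did not overlap for 63.2% of all genes tested.

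In the V1 sector, ATP6V1B2, ATP6V1G1, ATP6V1E1 and the very low ATP6V1B1 rose and none of 9 tested genes fell. Thus 44.4% were called, beside 45.5% of all genes tested. ATP6V1B2, the widely expressed B subunit of the ATP-hydrolysing head, had 54.0, 53.3 and 56.2 FPKM in WT and 78.0, 76.2 and 70.8 in DKO (0.50, SE 0.08, edgeR adjusted p = 0.0026). ATP6V1G1, part of the stalks that hold the head in place, had 128, 130 and 138 in WT and 199, 195 and 175 in DKO (0.57, SE 0.09, edgeR adjusted p = 0.0017). ATP6V1E1, its partner in the stalk, had 65.7, 60.8 and 63.2 in WT and 81.1, 75.1 and 73.9 in DKO. All 3 were higher in every DKO sample, but ATP6V1E1 (0.33, SE 0.10, edgeR adjusted p = 0.030) was not called without any 1 WT sample or without DKO replicate 1 or 2 (adjusted p = 0.050 to 0.14). Nor was ATP6V1E1 called by DESeq2 (adjusted p = 0.063), or by edgeR with no filter (0.055) or with replicate number as a block (0.13). ATP6V1A, the catalytic A subunit, went the other way without a call, from 14.2, 12.6 and 14.6 FPKM in WT to 11.5, 12.3 and 6.02 in DKO (-0.44, SE 0.24, edgeR adjusted p = 0.17; -0.21 without DKO replicate 3, adjusted p = 0.0040). ATP6V1C1, the regulatory C subunit, had 15.5 to 16.6 FPKM in WT, 14.3 and 14.1 in DKO replicates 1 and 2 and 9.20 in DKO replicate 3 (-0.32, edgeR adjusted p = 0.15; -0.17 without DKO replicate 3, adjusted p = 0.0068). ATP6V1D, the rotor shaft, had 46.1 to 49.0 in WT, 62.3 and 63.0 in DKO replicates 1 and 2 and 35.8 in DKO replicate 3, on opposite sides of WT (0.20, edgeR adjusted p = 0.42; 0.39 without DKO replicate 3, adjusted p = 4.1e-09). ATP6V1F, at 354 ± 8.06 and 368 ± 52.1 FPKM, and ATP6V1H, at 26.3 ± 0.869 and 26.0 ± 3.88, were called neither with nor without it (SD, n = 3 each).

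In the V0 sector, ATP6V0B, ATP6V0E2 and the low ATP6V0A4 rose and ATP6V0A2 fell. ATP6V0E2, a small e subunit, had 43.1, 42.7 and 41.8 FPKM in WT and 62.7, 59.0 and 78.9 in DKO (0.70, SE 0.15, edgeR adjusted p = 0.0084). Its difference was 0.52 without DKO replicate 3. ATP6V0B, which encodes a proteolipid of the rotor ring, had 47.0, 53.2 and 44.4 in WT and 66.6, 59.95 and 84.6 in DKO. Its groups were apart (0.61, SE 0.19, edgeR adjusted p = 0.036), by 0.39 without DKO replicate 3. The call was lost without any 1 WT sample or without DKO replicate 1 (edgeR adjusted p = 0.053 to 0.13). ATP6V0A2, an a subunit associated with the Golgi and endosomes, had 7.63, 8.06 and 7.93 in WT and 5.59, 5.56 and 4.94 in DKO (-0.51, SE 0.11, edgeR adjusted p = 0.0077). ATP6V0C, the main proteolipid of the ring, stood at 308 ± 17.6 and 331 ± 9.14 FPKM, ATP6V0E1 at 252 ± 8.69 and 271 ± 16.9, and ATP6V0A1 at 19.3 ± 0.436 and 22.0 ± 2.09 (SD, n = 3 each). None of these was called, with or without DKO replicate 3. ATP6V0D1, the d subunit that links ring and shaft, was at 55.3 to 59.7 FPKM in WT and 61.5 to 79.8 in DKO (0.32, edgeR adjusted p = 0.14; 0.13 without DKO replicate 3, adjusted p = 0.034).

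Where a subunit is encoded by several genes, the share of each in the summed FPKM of that subunit was compared. For subunit a, ATP6V0A2 made up 28.1, 28.9 and 29.4% in WT and 20.5, 20.8 and 16.4% in DKO. ATP6V0A1 took 70.8 ± 0.849% in WT and 78.4 ± 2.16% in DKO, and ATP6V0A4, the form known from renal intercalated cells, 0.354 ± 0.189% and 2.38 ± 0.574% (SD, n = 3 each). For subunit e, the share of ATP6V0E2 was 14.2, 14.9 and 14.4% in WT and 18.8, 18.8 and 21.5% in DKO, the rest being ATP6V0E1. This difference was 5.27 percentage points, and 8.73 when the shares were taken from estimated counts. Neither pair of groups overlapped, and each gave p = 0.1 in an exact two-sided permutation test, the smallest that 3 against 3 allow (0.2 adjusted over the 6 subunits tested). The small ATP6V1B1 share of subunit B gave the same p-values, at 0.142 to 0.15% in WT and 0.281 to 0.408% in DKO. For 63.2% of all genes tested, FPKM did not overlap between the groups. At subunits B, C, E and G, 1 gene held at least 99.0% of the level in every sample (ATP6V1B2, ATP6V1C1, ATP6V1E1 and ATP6V1G1), and at subunit d ATP6V0D1 held all of it.

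**Figure D4:**
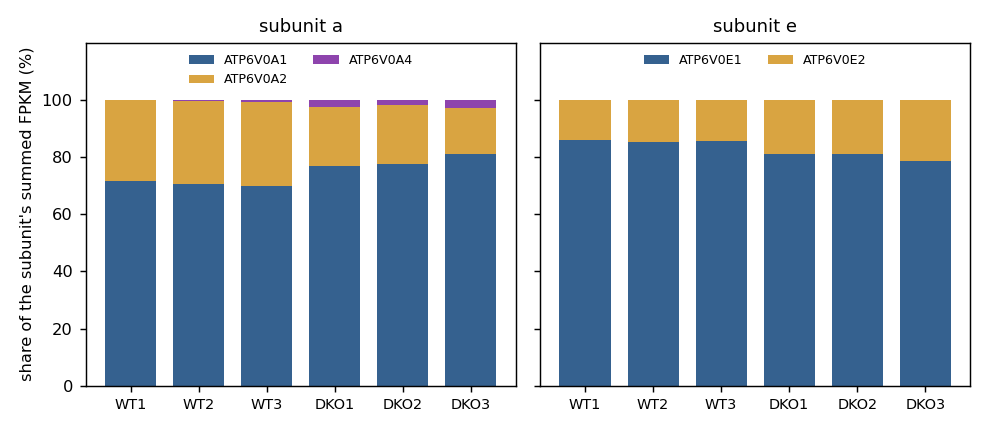
Share (%) of each paralog in the summed FPKM of V-ATPase subunits a (left) and e (right), 1 bar per sample. The part of ATP6V0A2 is 28.1 to 29.4% in the WT bars and 16.4 to 20.8% in the DKO bars, and that of ATP6V0E2 14.2 to 14.9% and 18.8 to 21.5%.

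Forms of the pump with narrow tissue ranges were at very low counts. ATP6V0A4 had 2, 6 and 8 counts in the WT libraries and 38, 24 and 49 in the DKO libraries (edgeR log2 fold change 2.83, adjusted p = 0.0019, 0.0016 with no filter), a ratio of 7.08 with an exact 95% counting interval of 4.17 to 12.8. ATP6V1B1, its intercalated-cell partner, had 4 counts in each WT library and 10, 10 and 15 in DKO, a ratio of 2.97 (1.51 to 6.29; edgeR adjusted p = 0.0059, and 0.0083 with no filter), but it was not called by DESeq2 (adjusted p = 0.057). Both were higher in every DKO library, at means of 0.673 and 0.243 FPKM. FOXI1, the factor that defines intercalated cells, had a mean of 0.0133 FPKM in WT and 0 in DKO. ATP6V0D2 had 0 counts in all 6 libraries, and ATP6V1G3 had 1 count in all. ATP6V1C2 (9 counts in WT, 3 in DKO), ATP6V1E2 (9 and 5), ATP6V1G2 (2 and 5) and ATP6V1FNB, a neighbour of ATP6V1F rather than a subunit gene (5 and 7), had too few counts to be tested. Counting intervals cover counting error only.

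The accessory proteins behaved differently from each other. ATP6AP1, which helps V0 to assemble in the endoplasmic reticulum, had 66.7, 67.8 and 64.9 FPKM in WT and 33.6, 32.6 and 42.6 in DKO. All DKO samples were well below WT (-0.82, SE 0.15, edgeR adjusted p = 0.0045). ATP6AP2, the prorenin receptor, had 47.0, 42.2 and 45.8 in WT, 48.6 and 49.3 in DKO replicates 1 and 2 and 28.0 in DKO replicate 3, so that its difference was -0.07 with all samples (edgeR adjusted p = 0.80) and 0.12 without DKO replicate 3 (adjusted p = 0.041). ATP6AP1L, a gene named for its likeness to ATP6AP1, had 14, 24 and 20 counts in the WT libraries (58 in all). The DKO libraries had 4, 8 and 10 (22 in all; -1.32, SE 0.36, edgeR adjusted p = 0.023). ATP6AP1L was not called without WT replicate 2, WT replicate 3 or DKO replicate 1 (adjusted p = 0.059 to 0.079).

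**Figure D5:**
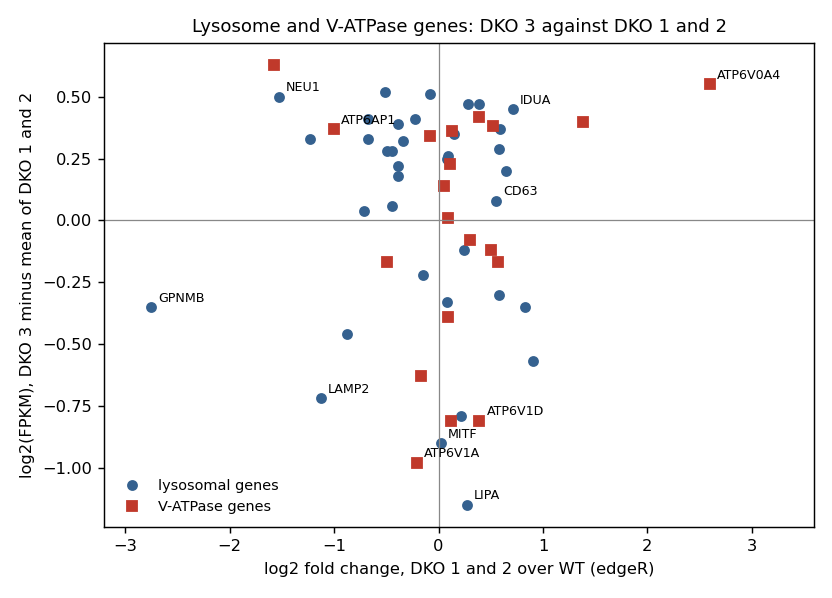
Log2 fold change of DKO replicates 1 and 2 over WT (edgeR, x axis) against the log2 difference in FPKM between DKO replicate 3 and the mean of DKO replicates 1 and 2 (y axis), 1 point per tested gene (circles, lysosomal genes; squares, V-ATPase genes). Points range from -1.15 (LIPA) to 0.63 (ATP6AP1L) on the y axis.

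DKO replicate 3 departed from DKO replicates 1 and 2 by log2 differences from -1.15 for LIPA and -0.98 for ATP6V1A to 0.63 for ATP6AP1L. For 5 of the 57 tested genes (8.77%, against 8.60% of all genes tested) DKO replicates 1 and 2 were above all WT samples and DKO replicate 3 below them: ATP6AP2, ATP6V1D, ATP6V1H, LIPA and SCARB2. The reverse held for ATP6V1F and GUSB. Genes lower in DKO replicate 3 had a longer transcript, as implied by their counts and FPKM: a median of 2574 bases for 21 genes of the group, against 1945 bases for the 35 that were higher there, beside 2868 and 2253 bases over all genes. The part of transcript length in these differences was not tested. The summed FPKM of proteases, glycosidases and lipid hydrolases was 1843 to 1922 in WT, 1659 and 1658 in DKO replicates 1 and 2 and 1972 in DKO replicate 3, so the DKO samples lay on both sides of WT.

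Further lysosomal genes were read from 5 related lists, none of whose genes is among the 64. Their counts stand beside 45.5% of all genes called with all samples and 74.6% without DKO replicate 3, and in 4 of the 5 lists a smaller share was called with all samples (25.8 to 34.4%). Of 31 tested other hydrolases and cofactors, 10 were higher and 5 lower (17 and 7 without DKO replicate 3; 7 to 10 and 3 to 5 without any other single sample), with a median log2 fold change of 0.29 against -0.01 for all genes tested. HYAL1, a hyaluronidase, rose from 1.37, 1.95 and 1.36 FPKM in WT to 43.9, 41.8 and 59.6 in DKO, far above any WT sample (5.00, SE 0.26, edgeR adjusted p = 1.7e-05). GGH, the hydrolase that trims folate polyglutamates, had 455, 432 and 463 counts in WT and 0 in every DKO library, at least 147-fold lower against a floor of 3 counts per library. GALC, the galactosylceramidase, had 127, 113 and 119 counts in WT and likewise 0 in every DKO library, at least 39.1-fold lower. GGH and GALC, both among the 5 called lower, passed the filter on low counts only through WT. The serine carboxypeptidase-like gene CPVL rose from 11.2, 10.6 and 10.5 FPKM to 47.5, 49.1 and 34.3 (2.07, SE 0.14, edgeR adjusted p = 4.7e-05).

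Of 31 tested other lysosomal membrane proteins and transporters, 3 were higher and 5 lower (8 and 17 without DKO replicate 3; 1 to 3 and 4 or 5 without any other single sample; median -0.33). SLC17A5, the sialic acid exporter, fell from 8.79, 7.78 and 9.40 FPKM to 3.39, 3.65 and 2.61 (-1.41, SE 0.17, edgeR adjusted p = 0.00065). TMEM192 (-1.02) and PIP4P2, a phosphoinositide phosphatase (-1.21), also fell, and TPCN1, a two-pore cation channel, rose (0.83). Among 32 genes that deliver hydrolases to lysosomes, 9 were higher and 2 lower (13 and 11 without DKO replicate 3; 6 to 8 and 1 or 2 without any other single sample; median -0.02). IGF2R, the cation-independent mannose 6-phosphate receptor, rose from 26.8, 26.7 and 27.7 FPKM to 43.0, 44.2 and 47.0, with the groups well apart (0.76, SE 0.09, edgeR adjusted p = 0.00058). The sorting receptor SORL1 (1.86), the adaptor subunit AP1G2 (1.30) and CLN8, which helps hydrolases leave the endoplasmic reticulum (0.84), also rose.

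In the list of mTORC1, Ragulator and Rag genes that act on TFEB, 5 of 26 were higher and 2 lower (9 and 6 without DKO replicate 3; 3 to 5 and 1 or 2 without any other single sample; median 0.10). The Rag GTPase genes RRAGA (70.8 ± 0.885 to 102 ± 3.37 FPKM, SD, n = 3 each; 0.57) and RRAGD (1.15) and the Ragulator anchor LAMTOR1 (0.90) rose, and FNIP2, a partner of folliculin (-1.18), fell. Of 12 genes for V-ATPase assembly and regulation, 1 was higher and 3 lower (1 and 8 without DKO replicate 3; median -0.35). RILP, a Rab7 effector, fell (-1.02, SE 0.23, edgeR adjusted p = 0.011). VMA21, an assembly factor of V0 in the endoplasmic reticulum, had 15.5, 16.4 and 17.3 FPKM in WT and 9.65, 8.79 and 2.62 in DKO (-1.26, SE 0.37, edgeR adjusted p = 0.028), with DKO replicate 3 the lowest. VMA21, DMXL2 (-0.78) and NCOA7 (0.81) were not called without any 1 WT sample (edgeR adjusted p = 0.066 to 0.095), nor was NCOA7 without DKO replicate 1 or 2 (adjusted p = 0.085 and 0.081), which left 1 lower in the list without any 1 WT sample and 3 lower without DKO replicate 1 or 2.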

How the data were processed

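Estimated counts and FPKM per gene were those the authors deposited, per the file headers. The submitters' processing notes name HISAT and Bowtie2. Counting program, genome build and strand setting: not given in the sources used here. From the table, 9 columns of 3 other samples were not used. Counts were not whole for 5.8 to 6.5% of genes per library and for 5 of the 64 genes described. They were rounded and fitted for all genes with edgeR 4.0.16 (quasi-likelihood test, TMM, filter on low counts by group, R 4.3.3). Adjusted p-values are Benjamini-Hochberg over the 13094 genes tested, called below 0.05. Fold changes are DKO over WT, and SE is |log2 fold change| over the square root of F, which can be below counting error at low counts. Alternatives used DESeq2 1.42.0, limma 3.58.1 and other settings.

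The genes and lists were chosen with earlier results of these data known. Values per sample are given for called genes and for LAMP1, LAMP2, MCOLN1 and the 3 MiT/TFE factors, and up to 4 called genes with the smallest adjusted p are named from each related list. Values of other genes were chosen after they were seen. RefSeq (assembly mChlSab1.0.hap1, 63 of the 64 gene IDs matched) served only to find overlapping genes. Tested on simulated counts (DKO against WT, 13094 genes), edgeR found 9% of true 1.5-fold, 78% of 2-fold and 100% of 4-fold changes, with 2.97% false calls. For DESeq2 these shares were 24%, 90%, 100% and 21.19%. Far fewer genes were changed in the simulation than in the data: edgeR called 101 there and 5959 here. The cutoff set by the adjusted p was therefore stricter there, so these shares do not carry over to the data.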

Additional observations from a re-analysis of the deposited data

How the results depend on the processing

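Of the 29 called genes, 19 (12 higher, 7 lower) kept their call in all 14 alternative fits. Counts with all samples were 17 higher and 12 lower, and 15 to 17 and 11 to 16 under other normalizations, filters and tools, and 13 and 8 at an adjusted p of 0.01. Leaving out 1 sample gave 13 to 22 higher and 8 to 23 lower, the highest being without DKO replicate 3 (22 and 23). Calls over all genes moved likewise. Without DKO replicate 3 they were 4770 higher and 5110 lower of 13237. Without any other single sample they were 2105 to 2822 higher and 2146 to 2714 lower, of 13255 to 13300. ATP6AP2 ran from -0.19 to 0.12 with 1 sample left out and was called higher at 0.12, without DKO replicate 3; ATP6V1F, ATP6V1H, FUCA1, GAA, GUSB, MITF and SCARB2 changed sign in at least 1 alternative without a call in the new direction. LIPA, at 0 with all samples, ran from -0.20 without DKO replicate 2 to 0.27 without DKO replicate 3, where it was called. The replicate block gave 13 higher and 8 lower, beside 2220 and 2265 of all 13094 genes, and 8 genes called in the main fit lost their call. ATP6V0A2 lost its call only there (edgeR adjusted p = 0.058). Same-numbered samples did not deviate together (correlations across genes of 0.0215, -0.284 and -0.29). DKO replicate 3 weighs heavily in these deviations, so the correlations cannot tell whether the numbers pair the samples. The DKO minus WT difference in the share of ATP6V0A2 was -9.59 percentage points and -8.15 to -10.4 with 1 sample left out, and that of ATP6V0E2 was 5.27, 4.38 to 5.72 with 1 sample left out and 8.73 from estimated counts, which give longer transcripts more weight. Genes not called here may still differ. The 9% of 1.5-fold changes recovered in simulated counts cannot say by how much, because far fewer genes were changed there.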
